A study of Homo sapiens with 3 samples.

Results

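Microtubule-associated proteins bind the microtubules that give axons and dendrites their shape and serve as tracks for transport. Tau, the product of MAPT, belongs to the same family of proteins as MAP2 and MAP4, which bind microtubules through shared repeats. MAP1A and MAP1B are large neuronal proteins of a separate family, MAP6 makes microtubules resistant to cold, and doublecortin (DCX) and its kinase relative DCLK1 stabilise microtubules in young and migrating neurons. Stathmins act in the other direction, since they bind free tubulin and favour disassembly. Accessible chromatin was described at 10 such genes, MAP2, MAP4, MAP1A, MAP1B, MAP6, DCX, DCLK1, STMN1, STMN2 and STMN4, and set beside MAPT.

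The 10 genes were chosen by name. A region belonged to a gene when a summit of the region, the position with the most sequenced tags, lay inside the RefSeq gene or within 50 kb of either outer end. All 10 symbols matched the RefSeq table, and the rule selected 104 of the 65234 accessible regions of the list. Each region was counted once however many summits it held. The data are ATAC-seq of neurons differentiated for 14 days from KOLF2.1J-hNGN2, cells of an established human iPSC line that carried human NGN2, a neurogenic transcription factor. In ATAC-seq a transposase cuts open DNA, and 100000 cells were harvested for an assay, with 3 biological replicates. All replicates came from a single line and form a single group with no control, and the authors' peak list covers them together without a value per replicate. No standard deviation between replicates can therefore be given, and no difference between genes was tested. The culture was profiled in bulk, so fewer cells with an open site and less opening per cell cannot be told apart.

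Fold enrichment is the authors' ratio of a summit to its local background. The tags behind each summit were worked out from that ratio and its p-value, and over the whole list ranged from 58 to 3783. Exact Poisson 95% intervals are given for tags and for counts of regions. They cover counting error only, because PCR copies are not independent molecules, and the depth of each replicate is unknown. As a check of the label, a summit lay within 1 kb of a start for 10 of 10 neuronal marker genes, 2 of 5 pluripotency genes (LIN28A and DPPA4) and 2 of 5 glial genes (AQP4 and MBP). No summit lay there for ALB, INS, MYH6, CD3E or HBB, and POU5F1 and NANOG had none either. Over all protein-coding genes 69.8% had a summit within 1 kb of a start. Within 1 kb of an outer end, 8 of the 10 neuronal genes had a summit, against 68.8%.

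RefSeq promoters, which run from 250 bases before to 50 after a start, were found for 7 of the 10 genes, with 18 listed starts. None was used here for MAP6, STMN2, STMN4 or MAPT, so either outer end of those genes stood in for a start. The bases before 6 starts are shown, 5′ to 3′ on the strand of the gene in build GRCh38.p14, because 5 of them hold all the matches to the E-box word CAGATG described next, while the sixth, that of MAP4, holds GC boxes but no CAGATG. Capitals mark CAGATG, a form of the E-box that NGN2 and related factors bind, and GGGCGG, the GC box, on either strand. The MAP2 bases are chr2:209579082-209579331 on the plus strand, and those of MAP1B are chr5:72179537-72179786 on the plus strand. The others lie on the minus strand. DCLK1 is shown at chr13:36131383-36131632 and chr13:35855668-35855917, DCX at chrX:111412093-111412347, which ends 5 bases after its start, and MAP4 at chr3:48088849-48089098.
MAP2: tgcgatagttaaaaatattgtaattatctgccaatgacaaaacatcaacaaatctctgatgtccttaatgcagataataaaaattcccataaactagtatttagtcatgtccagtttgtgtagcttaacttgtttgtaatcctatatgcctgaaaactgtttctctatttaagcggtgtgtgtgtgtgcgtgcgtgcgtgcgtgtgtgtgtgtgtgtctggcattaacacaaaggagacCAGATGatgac
MAP1B: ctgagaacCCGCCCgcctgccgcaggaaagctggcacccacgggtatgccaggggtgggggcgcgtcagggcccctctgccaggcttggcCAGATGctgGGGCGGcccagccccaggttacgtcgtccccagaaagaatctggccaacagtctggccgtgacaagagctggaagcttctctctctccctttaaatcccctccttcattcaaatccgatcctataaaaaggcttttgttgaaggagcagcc
DCLK1 upper start: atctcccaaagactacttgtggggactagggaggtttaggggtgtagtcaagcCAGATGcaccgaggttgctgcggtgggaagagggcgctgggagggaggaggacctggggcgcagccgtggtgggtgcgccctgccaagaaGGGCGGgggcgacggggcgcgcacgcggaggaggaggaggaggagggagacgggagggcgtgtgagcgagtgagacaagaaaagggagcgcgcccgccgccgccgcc
DCLK1 inner start: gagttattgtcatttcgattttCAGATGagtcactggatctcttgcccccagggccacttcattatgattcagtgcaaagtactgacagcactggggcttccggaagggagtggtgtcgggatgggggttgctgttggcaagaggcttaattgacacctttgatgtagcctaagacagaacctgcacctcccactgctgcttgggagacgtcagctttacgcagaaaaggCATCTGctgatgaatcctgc
DCX: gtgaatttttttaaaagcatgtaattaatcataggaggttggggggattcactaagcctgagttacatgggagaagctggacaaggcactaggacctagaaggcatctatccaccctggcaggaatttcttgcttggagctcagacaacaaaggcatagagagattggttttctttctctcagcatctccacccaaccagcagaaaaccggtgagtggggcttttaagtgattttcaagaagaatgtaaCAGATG
MAP4: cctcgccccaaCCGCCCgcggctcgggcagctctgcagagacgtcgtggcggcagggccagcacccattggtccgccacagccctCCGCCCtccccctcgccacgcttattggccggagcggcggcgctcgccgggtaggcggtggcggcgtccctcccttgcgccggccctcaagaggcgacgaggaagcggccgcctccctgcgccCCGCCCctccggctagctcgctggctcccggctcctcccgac

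CAGATG was present in 5 of the 18 promoters, at 4 of the 7 genes, against 12.2% of 22199 promoters of protein-coding genes and 15.4% of 15843 genes. Starts of a gene can lie close together, so these promoters are not separate observations. The 7 genes also list more promoters each, 18 in all, than coding genes do, with 22199 for 15843. They thus had more sequence per gene in which to hold a word. In MAP2 the word began 11 bases before the start, and in the inner promoter of DCLK1 it occurred 228 and 20 bases before the start. At the upper DCLK1 start it began 197 bases before, in the MAP1B promoter 160 before, and in DCX it spanned the start itself. The nearest summits lay 68 bp away in MAP2, 64 bp in the inner DCLK1 promoter, 136 bp in DCX, 221 bp at the upper DCLK1 start and 304 bp in MAP1B. The GC box was found in 8 of the 18 promoters (56.3% of all), CCAAT in 7 (34.7%), and TATAAA in 3 (9.47%). The E-box word CAGCTG and the word TGACGTCA were not found in these windows, and 18.0% and 2.26% of all promoters hold them. Words were searched on both strands, and none of the CAGATG matches is evidence of binding.

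A summit lay within 1 kb of a start at all 10 genes, against 69.8% of 20037 protein-coding genes, and within 1 kb of an outer end at all 10, against 68.8%. The share was 72.4% of genes with a listed start and 59.9% of genes placed by their outer ends. Of the 18 listed starts, 17 had such a summit, against 69.1% of the promoters of coding genes. The exception was the inner start of MAP4 at 48016416, on chromosome 3.

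The strongest start region of each gene had between 252 and 2665 tags. MAP1A led, with 2665 tags (interval 2565 to 2768) at a summit 70 bp from its outermost start on chromosome 15. The region, from 43510183 to 43511567, also covers the start of TP53BP1, a gene of the DNA damage response that runs the other way, so it cannot be assigned to either gene. MAP4, the member of the tau family that is expressed widely outside neurons, followed with 2220 tags (2129 to 2314) and the highest fold enrichment of any start here, 14.9. MAP1B, the MAP1 protein of growing axons, had 1470 tags (1396 to 1547) in a region that also covers the start of the non-coding gene LOC105379028. These 3 genes ranked above all the others, and their intervals did not overlap.

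Next came MAP2, the marker protein of dendrites, with 1219 tags (1152 to 1289) at its middle start, and STMN1, the stathmin of dividing cells and young neurons, with 1182 tags (1116 to 1251). The region at the MAPT end, which overlaps MAPT-AS1, stood beside them with 1246 tags (1178 to 1317). The intervals of MAPT, MAP2 and STMN1 overlapped. STMN4, a stathmin of the nervous system, had 975 tags (915 to 1038) and MAP6 had 964 tags (904 to 1027) at a summit 893 bp from its upper end, again with overlapping intervals. DCLK1 followed with 751 tags (698 to 807) and STMN2, the stathmin of growth cones, with 550 tags (505 to 598). DCX was lowest, with 252 tags (222 to 285). It is the only gene here on the X chromosome, and tag counts were not adjusted for the number of copies of a gene per cell. Among 11332 regions near listed coding starts, these tag counts placed MAP1A at percentile 98.7, MAP4 at 95.7, STMN2, by its outer end, at 30.4 and DCX at 11.1.

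**Figure D1:**
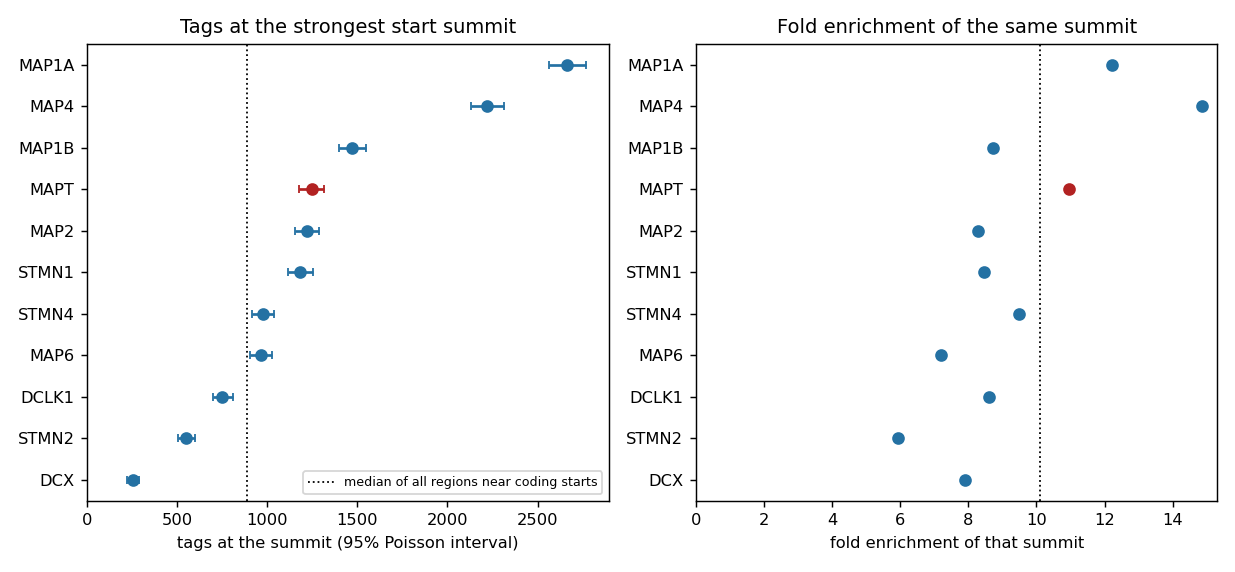
Tags at the strongest summit of a region within 1 kb of a start (left, with 95% Poisson intervals) and the fold enrichment of the same summit (right) for 10 genes and MAPT (red). MAP1A and MAP4 stand highest in tags and DCX, the only gene here on the X chromosome, lowest at 252. By fold enrichment DCX, at 7.91, lies close to STMN1 at 8.46.

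Fold enrichment gave another order. The DCX summit had a fold enrichment of 7.91 over a background of 31.0 tags, close to the lowest background in the list, 29.2. MAP1B reached 8.72 over 167.7 tags of background, so similar ratios stood for tag counts of 252 and 1470. MAP4 was at percentile 88.0 of start regions by fold enrichment and MAP1A at 66.8. By the start region with most tags, all other members lay below the median start region, 10.1, on this scale. They ran from STMN4 at 9.49 down to STMN2 at 5.94. The inner MAP2 start, which had fewer tags, lay just above that median at 10.24. MAPT stood at 10.95.

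Several genes had more than a single accessible start. At MAP2, the region at the lower outer end of the gene, chromosome 2 from 209423440 to 209425340, held 1080 tags (1017 to 1146) at a fold enrichment of 10.2, although no listed start is there. The middle starts, at 209579332 and 209579607, shared the 1219 tags already given, and a neighbouring region from 209577617 to 209578923 held 1045 tags (983 to 1110). The inner start at 209661496 had 556 tags (511 to 604) at a fold enrichment of 10.2. MAP2 was thus accessible at its outer end and at all its listed starts, with the inner start lowest in tags.

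The MAP1 genes differed from each other in this respect. The inner MAP1B start at 72179787 had 1131 tags (1066 to 1199) against 1470 at the outer one. In MAP1A the inner start at 43517608 had 351 tags (315 to 390) at a fold enrichment of 4.19, against 2665 at the outer one. DCLK1 had 751 tags at its upper starts but 166 (142 to 193) at the inner start at 35855667. The 3 DCX starts shared a region 1996 bp wide, from 111410579 to 111412574 on the X chromosome, with 5 summits of 70 to 252 tags. At STMN1 the 3 starts shared a region from 25905383 to 25907050 on chromosome 1, with 940, 587 and 1182 tags at its 3 summits.

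The starts also differed in base composition. The MAP4 outer promoter was 75.0% G and C with 37 CG dinucleotides, the highest count here, and the outer MAP1B promoter held 31. DCX promoters were 43.0 to 45.0% G and C with 2 to 4 CG dinucleotides, and MAP2 promoters held 5 to 10. Of the 18 promoters, 12 had fewer CG dinucleotides than the median of all coding promoters, 21. A summit lay within 1 kb of 11 of these 12, against 44.4% of 10920 such promoters of all coding genes. The split at the median was chosen after the values had been seen, and the 11 rest on 9 regions, because starts of a gene share them. Some are shared with a start above the median. The strongest summit near the DCLK1 start at 36131939, with 2 CG dinucleotides, lay 26 bp from the start at 36131382, with 27. The strongest near the STMN1 start at 25906880, with 19, lay 62 bp from the start at 25906419, with 29. The 6 promoters at or above the median all had a summit, against 93.0%.

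**Figure D2:**
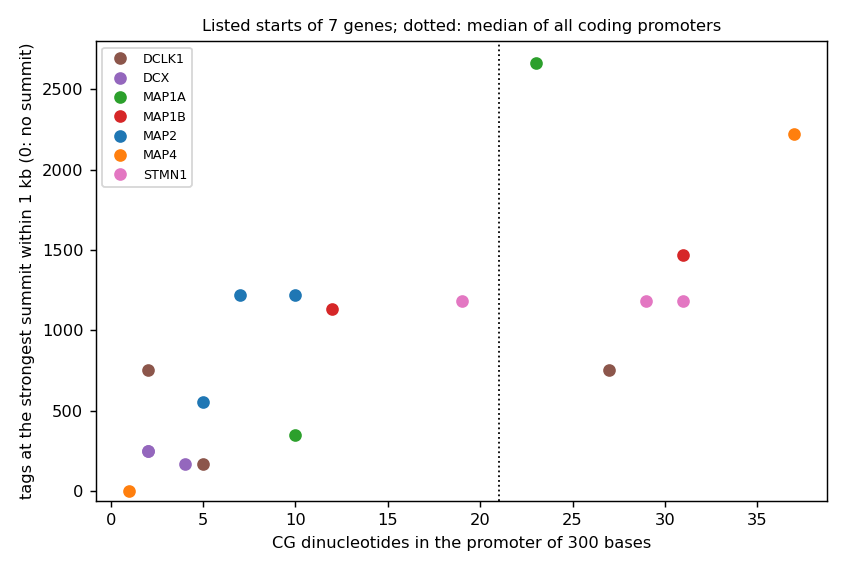
Tags at the strongest summit within 1 kb (y axis) against the number of CG dinucleotides (x axis) for the 18 listed starts of 7 genes, with 0 tags where no summit lay within 1 kb; starts with the same values overlap. All starts of MAP2 and DCX lie left of the dotted median of 21, with 170 to 1219 tags, and the MAP4 start without a summit is at the lower left.

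The number of regions varied from 3 at MAP1A to 22 at MAP2. Per 100 kb of gene and flanks, STMN1 was densest with 7.33 (9 regions, interval 3.35 to 13.9), followed by MAP1B with 6.93 (14 regions, 3.79 to 11.6), MAP6 with 6.04 (11 regions, 3.02 to 10.8) and MAP2 with 5.37 (22 regions, 3.36 to 8.12). STMN4 had 4.87 (6 regions), DCLK1 4.10 (19 regions) and STMN2 3.87 (6 regions). The sparsest were MAP4 with 2.66 (9 regions), MAP1A with 2.49 (3 regions) and DCX with 2.29 (5 regions). Intervals of neighbours in this order overlapped throughout. Density was above the coding-gene median of 3.12 at 7 of the 10 genes, against 50.0% of coding genes.

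The MAPT gene body held 2 regions in 133.8 kb, or 1.49 per 100 kb (interval 0.181 to 5.40). All 10 genes with their flanks were denser than that, but so were 83.5% of coding genes. Pooled over the 10 genes and flanks, 104 regions in 2.34 Mb gave 4.45 per 100 kb, 2.98 times the MAPT gene body. The exact interval of that ratio, 0.804 to 24.9, includes 1, because MAPT contributes only 2 regions. Gene bodies alone were also denser at all 10 genes (64.8% of coding genes), with 66 regions in 1.34 Mb, 4.94 per 100 kb, a ratio of 3.31 (0.880 to 27.9). The single region of the STMN4 body lies across its end, and by its strongest summit it fell outside the gene, which left 9 of 10 genes denser than MAPT. With 50 kb flanks on both sides, MAPT had 5 regions, 2.14 per 100 kb, still below all 10 genes (69.9% of coding genes), and DCX at 2.29 was nearest to it.

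**Figure D3:**
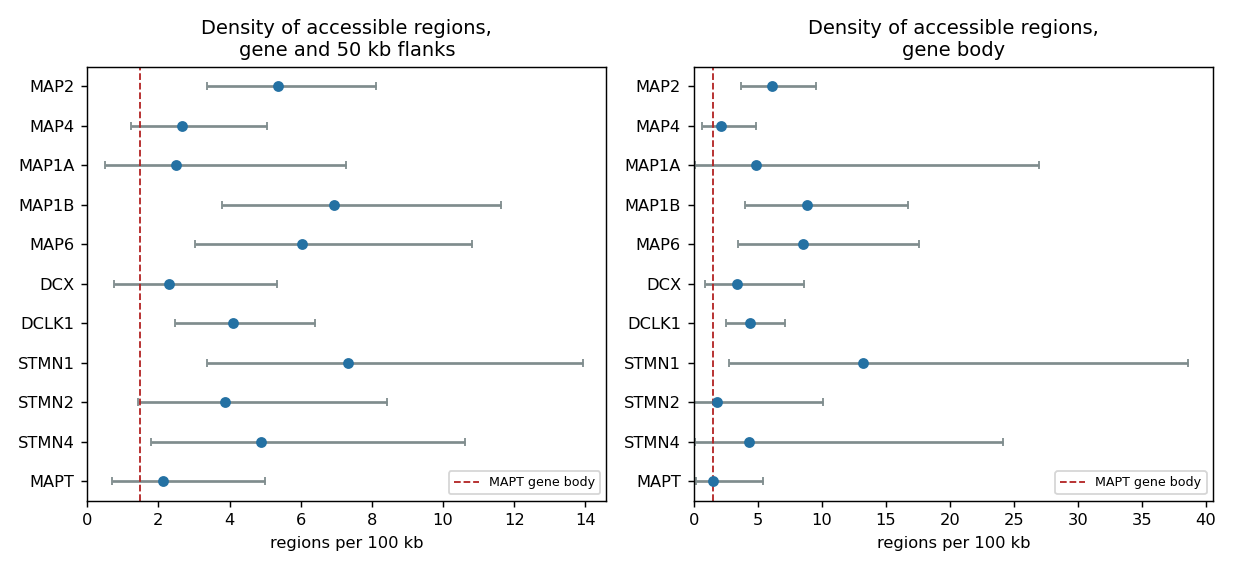
Accessible regions per 100 kb for each gene with 50 kb flanks (left) and for the gene body alone (right), with exact Poisson 95% intervals; the dashed line is the MAPT gene body at 1.49. All points lie to the right of the line, but the intervals of 4 genes with flanks, MAP4, MAP1A, DCX and STMN2, reach across it.

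Gene length sets how much sequence can hold a region, so each gene was placed among coding genes within 1.5 times its length. By the number of regions in the gene body, MAP1B stood at percentile 99.0 of 2839 genes, MAP6 at 98.5 of 3159, MAP2 at 97.4 of 963 and STMN1 at 96.0 of 4200. DCLK1 was at 90.8 and DCX at 73.3. MAP1A, STMN4 and MAP4 were near the middle, at 52.9, 50.7 and 46.2, and STMN2 at 32.9 was next to MAPT at 32.5. These counts depend on summits close to the gene ends. End regions of STMN2 (21 and 111 bp outside), MAP1A (70 bp) and MAPT (166 bp) were not counted. Those of MAP4, MAP1B and STMN4, whose strongest summits also lie outside, counted through a weaker summit inside. By regions in gene and flanks, STMN2 stood at 70.5, MAPT at 39.2 and MAP1A at 28.6. These percentiles describe this list and were not tested. The tau relatives thus lay far apart in this measure, with MAP2 near the top of its length class and MAP4 and MAPT in the middle or below.

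Inside the gene, over 1 kb from both ends, a summit was found at 9 of the 10 genes. The share was 44.2% of all coding genes and 65.6% of those of 20 kb or more. Among coding genes within 1.5 times the length of the member, it was 73.1% to 97.8% for MAP6, MAP1B, DCX, MAP4, MAP2 and DCLK1. For STMN2 this share was 61.3%, and for MAP1A, STMN1 and STMN4 it was 36.1% to 38.3%. A summit inside is thus common among genes as long as most of the members. STMN4 was the exception. For MAP1A the inner region was that of its second start. Leaving out regions whose strongest summit lay within 1 kb of a start or outer end, 51 regions lay inside the genes. Of these DCLK1 held 14 and MAP2 held 16. The MAP2 regions include the neighbour of its middle starts, which has weaker summits within 1 kb of a start.

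The inner regions differed widely in strength within a gene. In DCLK1 the highest fold enrichment, 14.7 with 610 tags (563 to 660), was at 36074585 to 36075334 on chromosome 13, 56.6 kb inside the gene from its upper starts. Another, from 35953446 to 35954004, had 13.7 with 1061 tags (998 to 1127), more than the 751 tags of the DCLK1 start itself. The other inner DCLK1 regions ranged down to 2.64 with 90 tags. In DCX the region from 111376984 to 111377807, 33.8 kb from the nearest start, had a fold enrichment of 11.8 and 501 tags (458 to 547), also more than its start with 252. The DCX region next to it, from 111371872 to 111372676, had 10.04 with 432 tags (392 to 475). In both DCLK1 and DCX an inner region therefore exceeded the start in tags, with intervals that did not overlap. These are the highest of 14 inner regions in DCLK1 and 3 in DCX. The share of coding genes with such an inner region was not worked out, and the related genes DCLK2 and DCLK3 were not compared in this way.

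At the other genes with regions inside, MAP2, MAP4, MAP1B, MAP6, STMN1 and STMN2, no inner region had more tags than the strongest start region. The MAP2 region nearest to it in tags was the neighbour of the middle starts with 1045. The inner MAP2 region of highest fold enrichment, 10.4 from 209671090 to 209672233, had 343 tags (308 to 381). MAP4 reached 9.40 with 283 tags (251 to 318) from 47989762 to 47990617, against 2220 at the start. MAP1B had 9.81 with 624 tags (576 to 675) from 72166173 to 72167247 on chromosome 5. In MAP6 the highest, from 75639426 to 75640483 on chromosome 11, had 12.7 with 673 tags (623 to 726), against 964 at the end region. STMN1 held a single inner region, from 25895097 to 25896189, with 11.8 and 646 tags (597 to 698). STMN2 likewise held a single one, from 79612484 to 79613672 on chromosome 8, with 4.12 and 385 tags (348 to 425). The inner MAPT regions had 7.11 with 330 tags and 2.74 with 310 tags.

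**Figure D4:**
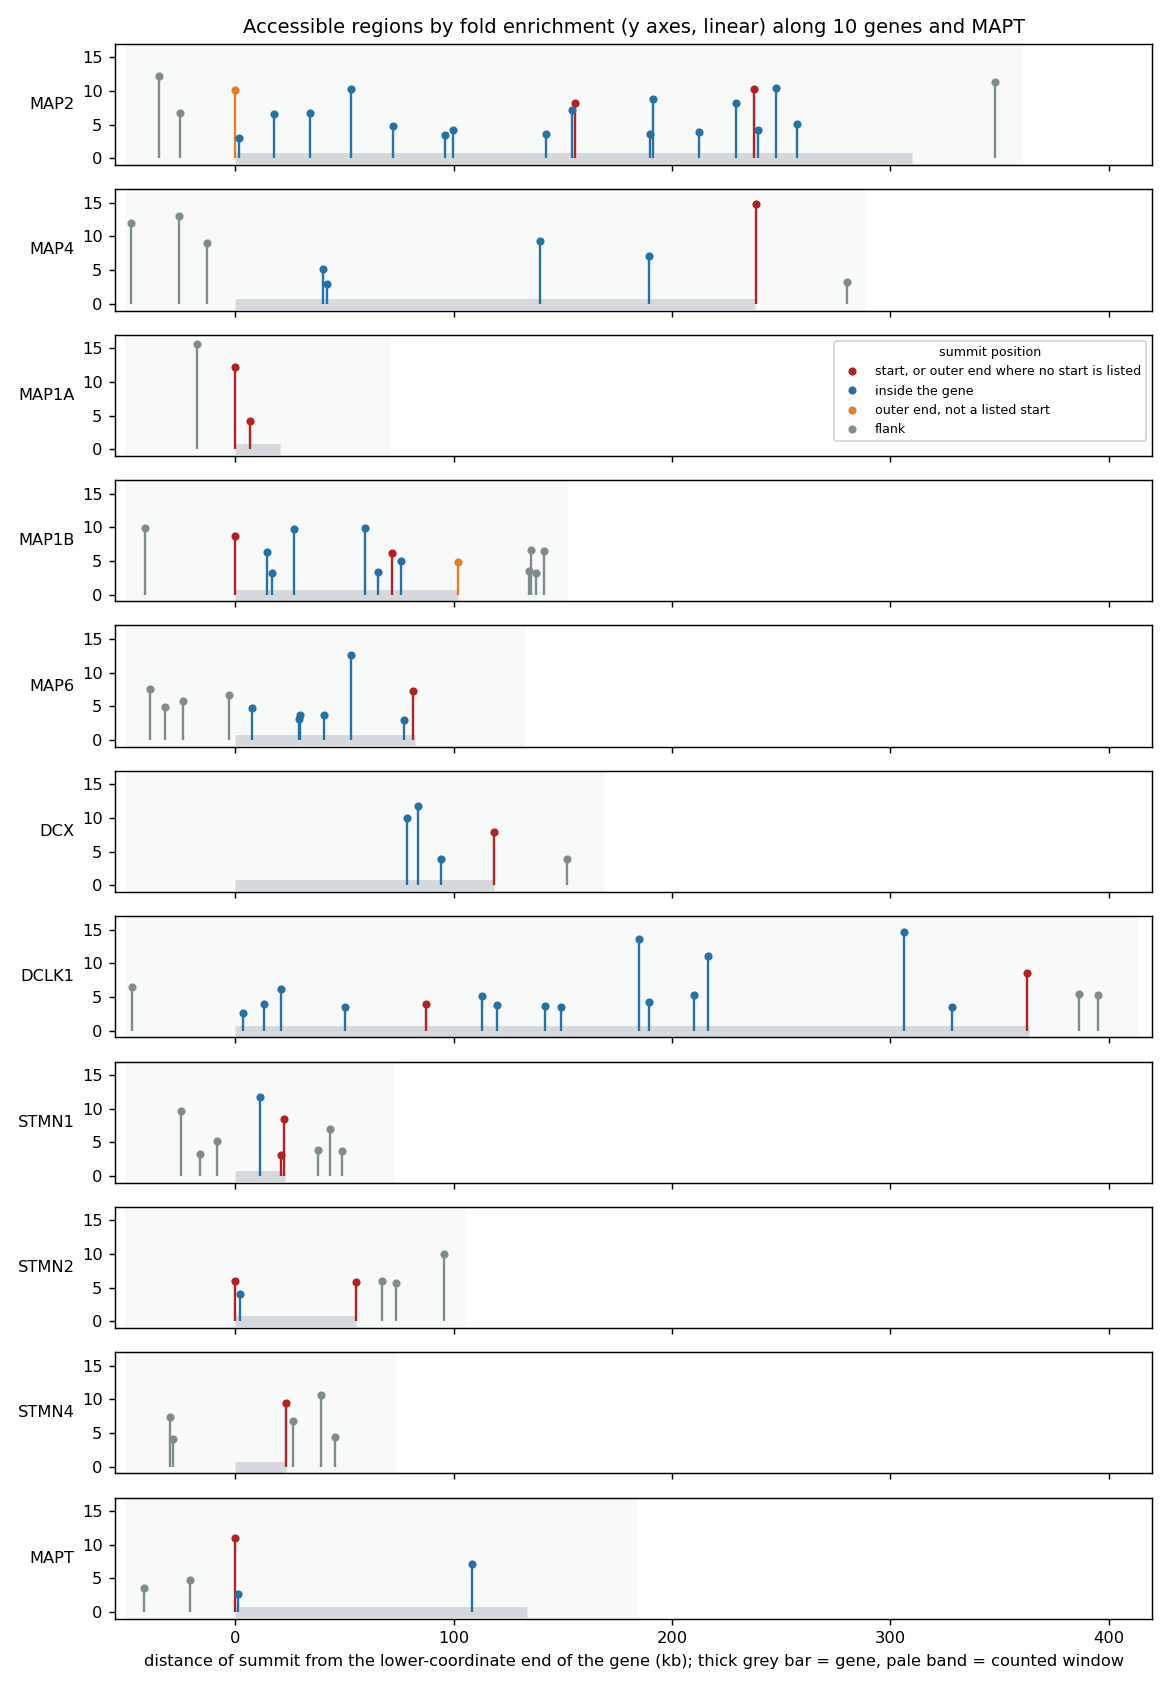
Fold enrichment (y axes) of each region of 10 genes and MAPT against the distance of its strongest summit from the lower-coordinate end of the gene in kb (x axis), coloured by position; grey bars are genes. MAP2 and DCLK1 carry the most regions inside the gene, and MAPT has 2 there, with none between 1.1 and 108.2 kb. Long empty stretches occur in other genes as well, such as 41.8 to 139.4 kb in MAP4 and 216.3 to 306.2 kb in DCLK1.

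Over all 104 regions the median fold enrichment was 5.98, with 56 above the median of the whole list, 5.60 (50.0% of all regions by construction). Medians by gene ran from 4.94 at MAP6 to 12.2 at MAP1A, which has 3 regions. With flanks, all 10 medians lay above that of the 2 regions in the MAPT gene body, 4.92, as did 79.9% of coding genes with a region. The MAPT gene body does not hold the region at the MAPT end, whose only summit lies outside the gene. End regions with the strongest summit outside counted in the body where another of their summits lay inside. Those of MAP4, MAP1B and STMN4 did so, and the STMN4 body value, 9.49, is that of such a region. Gene body against gene body, 6 of 10 lay above it, against 78.3% of coding genes, and MAP6 (3.70), STMN2 (4.12), DCLK1 (4.15) and MAP1A (4.19) lay below. By tags, with flanks, 6 of 10 lay above its 320, but the share of coding genes above it was not worked out. Start regions of the 10 genes had a median of 8.10 and 857.5 tags, against 10.1 and 885.5 for all regions near listed coding starts. The 2 sets were defined differently, because the first includes outer ends of MAP6, STMN2 and STMN4, with both ends of STMN2. Regions inside the 10 genes had a median of 4.83 and 245 tags, against 5.03 and 206 for regions inside coding genes away from listed starts.

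Strong regions inside the genes were counted with a limit of 10 in fold enrichment, chosen after the values had been seen. Of the 51 regions inside the 10 genes, 9 (17.6%) reached it, against 6.64% of 24769 regions inside coding genes and away from listed starts and 15.7% of all 65234 regions, starts included. DCLK1 held 3 of the 9, MAP2 and DCX 2 each, and MAP6 and STMN1 1 each, whereas MAP4, MAP1A, MAP1B, STMN2 and STMN4 held none. MAPT held none either. These shares were not tested.

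Outside the gene bodies lay 38 regions, of which 3, at MAP1A and at both ends of STMN2, were start or end regions. The other 35 lay in the flanks, and some belong to other genes. Of all 104 regions, 6 lay within 1 kb of an end of another coding gene. The highest fold enrichment in any flank, 15.7 with 1124 tags (1059 to 1192), was at 43492694 to 43493874, inside TP53BP1 and 17.7 kb from MAP1A. Near MAP4 the highest, 13.1 with 777 tags, lay inside DHX30, an RNA helicase gene, from 47824498 to 47825813. The start of UNC80, a gene of the sodium leak channel complex, lay in the upper MAP2 flank with 11.3 and 702 tags, but the highest MAP2 flank region, 12.2 with 707 tags from 209388489 to 209389866, lay in no annotated gene. Around MAP6 the highest was 7.52 with 351 tags (75547445 to 75548286), around MAP1B 9.93 with 501 (72065717 to 72066598), and around DCLK1 6.48 with 255 (35720770 to 35721567). Near STMN1 it was the start of AUNIP, with 9.69 and 481 tags. STMN2 and STMN4 had 10.05 with 389 tags (79706418 to 79707486) and 10.6 with 398 tags (27274257 to 27275064), both outside annotated genes. The only flank region of DCX had 3.94 with 118 tags (111445468 to 111445841).

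MAP1B and STMN2, 2 of the 10 genes, had a summit within 1 kb of both outer ends, against 6.7% of coding genes. At STMN2 the lower end had 550 tags and the upper end 347 (311 to 386) at a fold enrichment of 5.83. At MAP1B the lower end, its outer start, had 1470 tags and the upper end 250 (220 to 283) at a fold enrichment of 4.83, from 72209153 to 72210050. The limit of 50 kb left out a region 53.1 kb from STMN4 with a fold enrichment of 13.2 and another 52.1 kb from DCLK1 with 8.31. It took in 1 region 47.6 kb from MAP4 with 12.0 and 1 region 47.5 kb from DCLK1 with 6.48.

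Other genes that act on microtubules were counted from a list of 31 chosen by function. A summit lay within 1 kb of a start at 28 of the 31, against the 69.8% of coding genes. It was so for all 8 genes of plus-end proteins, all 3 of minus-end proteins, all 5 of severing enzymes, all 3 further doublecortin and stathmin genes, 8 of 10 structural genes and 1 of 2 light chain genes. No summit lay within 1 kb of a start or outer end of MAP7D2, MAP7D3 and MAP1LC3A. TPPP lacked one at its outer ends but had one at a listed start. The median density with flanks was 2.74 regions per 100 kb, against 4.49 for the 10 genes described here and 3.12 for coding genes. MAP1S had the highest, 8.69, followed by CLIP2 with 6.47 and TPPP3 with 5.79.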

How the data were processed

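The authors deposited 1 peak list for the 3 replicates, which the labels name as the optimal IDR set. Build hg38 is given by the submitters' processing notes, and the aligner, caller and filters are not given in the sources used here. The deposited fold enrichment is a linear ratio, the deposited −log10 p belongs to each summit, and the deposited score is a whole number up to 1000. The list has no header.

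Entries that share both bounds counted as 1 region, carrying the summit of highest −log10 p. Tag counts were solved from ratio and p as Poisson tail probabilities (pseudocount 1). All 145092 entries gave a whole number within 0.00079 units of −log10 p, where the next whole number missed by a median of 0.266. Gene ends, starts and promoters came from RefSeq GRCh38.p14. Exon positions were not used here. The members and lists were chosen with earlier results of these data known. Genes were named by rule: the members, MAPT, neighbours that hold a described region, markers, and, of the other regulators, those without an accessible end and the 3 densest. For each member the start region and the regions of highest fold enrichment inside and in the flanks are given. Alternatives were other flanks, windows, thresholds, entries, overlaps and neighbours. Python 3.11.15, numpy 2.4.6, pandas 2.3.3, scipy 1.17.1 and matplotlib 3.10.9 were used, and the code was tested on simulated data.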

Additional observations from a re-analysis of the deposited data

How the results depend on the processing

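The 104 regions of the 10 genes became 66 in gene bodies only and 242 when every summit entry was counted, both by construction, and ranged from 79 to 137 under the other alternatives. The ratio of their density to MAPT stayed above 1 in all 12 alternatives, from 1.98 with every entry to 3.31 for gene bodies. No interval of it excluded 1. All 10 genes were denser than MAPT except with every entry, with gene bodies extended by 1 kb, with only sequence over 1 kb inside, and with the strongest summit deciding in the gene body, where 9 were. The last 3 were added after seeing the data, as was the strongest summit deciding with flanks. The median fold enrichment of 5.98 became 3.83 over every entry, where weaker summits of the same regions enter, and the median in tags was 284. Counts of accessible starts stayed at 10 members, and 28 or 29 of 31 other regulators, under every alternative run, against 68.1% to 72.0% of coding genes. Genes with an inner summit were 8 of the 10 when 5 kb from the ends was required, against 33.2% of coding genes. No paired analysis was possible because there is only 1 group, and the peak list gives no values by replicate. No replicate could be left out for the same reason. Depth limits weak regions: the weakest of the 104 regions had 90 tags at its strongest summit.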

Other observations

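MAP6 had a further accessible region 3.1 kb beyond its lower end, from 75582933 to 75584562, at the listed start of MAP6-AS1, which overlaps MAP6. It had 557 tags (512 to 605) and a fold enrichment of 6.63. A region lay 3.5 kb beyond the upper end of STMN4, from 27261340 to 27262271, with 684 tags (634 to 737) and a fold enrichment of 6.82, in no annotated gene. Beyond the upper end of MAP1B, 4 regions lay within MRPS27, a mitochondrial ribosomal protein gene, with fold enrichments of 3.23 to 6.60.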
